A study of Mus musculus with 4 samples.

Results

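The genes described here are 8 markers of the non-neuronal olfactory epithelium, measured in RNA from neurons sorted out of that epithelium: the keratins Krt5, Krt14, Krt15, Krt8, Krt18 and Krt19 and the transcription factors Trp63 and Sox2. They were chosen by symbol, with earlier results of these data known, and each has 1 row among the 28168 loci of the deposited table. Mature olfactory sensory neurons of mice were sorted by fluorescence after papain dissociation of the olfactory epithelium, and their polyadenylated RNA was sequenced in 4 libraries, 2 labelled control and 2 labelled Nd1. Per the genotype labels, every mouse carried OMP-IRES-GFP+/-, a GFP reporter at the gene of the olfactory marker protein. Both Nd1 libraries came from mice that carried the Nd1 insertion (Nd1+/-) together with OMP-IRES-tTA+/-, a transcriptional activator placed at the same gene. Control replicate 1 carried Nd1+/- without tTA, and control replicate 2 carried tTA without Nd1. Age was 212 days for replicate 1 and 87 days for replicate 2 in both groups, so the 2 controls differ from each other in genotype and in age. The series title states that double-stranded RNA encoded in the genome is expressed in the transgenic mice, and the design text speaks of neurodegeneration. The number of mice behind a library is not among the labels.

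The table holds 1 pooled FPKM value per group (fragments scaled by transcript length and by mapped fragments, so levels can be compared between genes). No spread between libraries and no depth can therefore be given. A gene is said to rise or fall only where the authors called it, at a q-value under 0.05 from Cuffdiff. As the error of a log2 ratio, a standard error (SE) was derived by dividing the size of the log2 ratio by that of the authors' test statistic. It is the error of the authors' model, not a spread measured between mice.

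The olfactory epithelium rests on a layer of horizontal basal cells, reserve stem cells that hold the keratin pair Krt5 and Krt14 and need the p53 family factor Trp63 (p63) to stay at rest. Globose basal cells above them divide and give rise to neurons, and sustentacular cells span the height of the epithelium as supporting cells with the simple keratins Krt8 and Krt18. Sox2 is found in basal and in sustentacular cells. Keratins form filaments as pairs of a type I chain (here Krt14, Krt15, Krt18 and Krt19) with a type II chain (here Krt5 and Krt8). None of these genes is a defining gene of mature olfactory neurons.

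In the Nd1 pool all 8 markers stood below the control pool, as did 58.2% of the tested loci above 0 in both groups. The authors tested 7 of them and all 7 fell, by 1.66-fold to 2.24-fold. Over all tested loci, 34.4% were called in either direction and 19.2% were called lower in the authors' deposited table. Without odorant receptor loci the lower share was 14.2%, and it was 13.1% among the 6357 such loci whose control level lay in the range of the 7 tested markers. At least 2-fold was the fall of 3 markers (Krt5, Krt19 and Trp63), a size that 9.39% of all tested loci reached as called falls. The median log2 ratio of the 7 tested markers was -0.82, beside -0.07 over all 14704 tested loci above 0 in both groups. Summed over the 8 markers, the level was 38.7 FPKM in control and 21.4 FPKM in Nd1, a ratio of 0.55. The RNA came from a sort for neurons. In such bulk RNA, fewer cells of a type, fewer of them carried through the sort and less RNA per cell cannot be told apart.

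**Figure D1:**
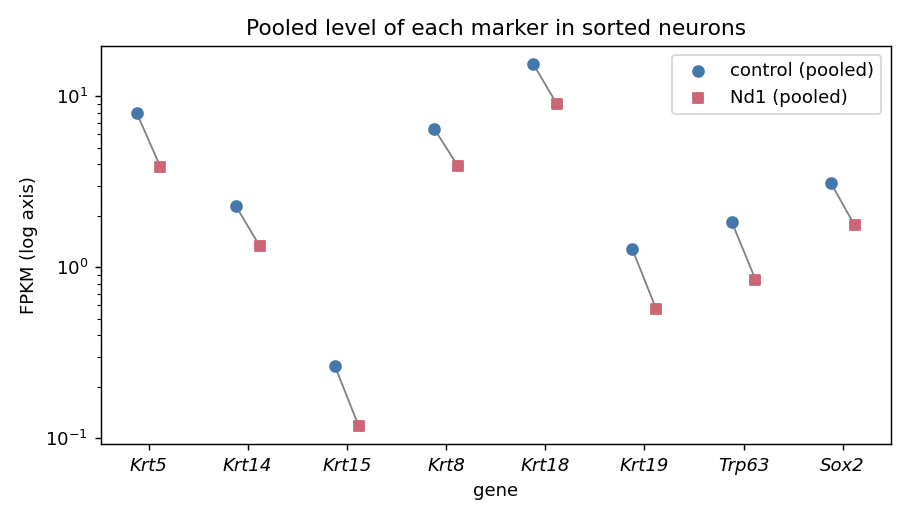
Pooled FPKM of each of the 8 markers in control (circles) and Nd1 (squares), on a log axis, with a line joining the 2 values of a gene. Every line slopes down, from Krt18 at 15.5 and 8.97 FPKM to Krt15 at 0.264 and 0.117 FPKM.

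Among the basal keratins, Krt5, the type II chain of the basal cell pair (mm9 chromosome 15, 101537501 to 101543322), stood at 8.03 FPKM in control and 3.86 FPKM in Nd1. Its log2 ratio was -1.05 (SE 0.22), and it fell with q = 7.14e-06 in the authors' deposited table. Its type I partner Krt14 (mm9 chromosome 11, 100064476 to 100068824) stood at 2.29 and 1.33 FPKM, with a log2 ratio of -0.78 (SE 0.26) and q = 0.0101 in the authors' deposited table. The pair therefore fell together, and the level of Krt5 was 3.51 times that of Krt14 in control and 2.90 times in Nd1. The difference between their log2 ratios was -0.28, with a 95% interval from -0.94 to 0.38 that takes the errors of both genes as independent. Krt15, a type I keratin of basal keratinocytes (mm9 chromosome 11, 99993073 to 99997263), was the lowest of the 8 at 0.264 and 0.117 FPKM. The authors did not test it. Its log2 ratio was -1.17 with an SE of 0.66, and the 95% interval from -2.47 to 0.13 includes 0.

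The simple keratins were the larger part of the signal. Krt18, the type I chain of simple epithelia (mm9 chromosome 15, 101858647 to 101862457), had the highest level of the 8, at 15.5 FPKM in control and 8.97 FPKM in Nd1, and made up 39.9% of their summed FPKM in control and 42.0% in Nd1. It fell with a log2 ratio of -0.79 (SE 0.19; q = 0.000214 in the authors' deposited table). Its type II partner Krt8 (mm9 chromosome 15, 101827142 to 101834773) stood at 6.48 and 3.90 FPKM, the smallest fall of the 7, with a log2 ratio of -0.73 (SE 0.23; q = 0.00655 in the authors' deposited table). The loci of these partners are neighbours, 23873 bp apart on mm9. The level of Krt18 was 2.39 times that of Krt8 in control and 2.30 times in Nd1, and the difference of their log2 ratios was -0.05 (95% interval -0.64 to 0.54). Krt19, a small type I keratin of simple and ductal epithelia (mm9 chromosome 11, 100002126 to 100007233), stood at 1.27 FPKM in control and 0.568 FPKM in Nd1. It fell with a log2 ratio of -1.16 (SE 0.39; q = 0.00958 in the authors' deposited table). Summed, Krt8, Krt18 and Krt19 went from 23.2 to 13.4 FPKM, a ratio of 0.58, while the basal keratins Krt5, Krt14 and Krt15 went from 10.6 to 5.31 FPKM, a ratio of 0.50.

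Both transcription factors fell. Trp63, the p53 family factor that holds horizontal basal cells in reserve (mm9 chromosome 16, 25683851 to 25892174), stood at 1.85 FPKM in control and 0.847 FPKM in Nd1. Its log2 ratio of -1.13 (SE 0.25) carried q = 3.38e-05 in the authors' deposited table. Sox2, a high mobility group factor of progenitor and supporting cells, stood at 3.12 FPKM in control and 1.76 FPKM in Nd1. It had a log2 ratio of -0.82 (SE 0.28; q = 0.0105 in the authors' deposited table). The table lists it at mm9 chromosome 3, 34459303 to 34576915, which are the bounds of the long noncoding transcript Sox2ot as well. Sox2ot itself stood at 0.0816 and 0.0543 FPKM and was not tested, so the value listed for Sox2 was 38.2 times that of the overlapping transcript in control.

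The markers kept nearly the same order of level in both pools: Krt18 came first, followed by Krt5 and Krt8, then Sox2, Krt14, Trp63, Krt19 and Krt15. Only Krt5 and Krt8 changed places, with 8.03 and 6.48 FPKM in control and 3.86 and 3.90 FPKM in Nd1. No spread over libraries is at hand to say which neighbours in that order differ. The sizes of the falls could not be told apart either. Among the 21 pairs of tested markers the largest difference in log2 ratio was 0.43, between Krt8 and Krt19, and the 95% interval of the difference included 0 in all 21 pairs. Those intervals reach past 1 on the log2 scale for some pairs, as for Krt8 against Krt19 (-0.45 to 1.31), and they do not show that the genes moved alike.

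**Figure D2:**
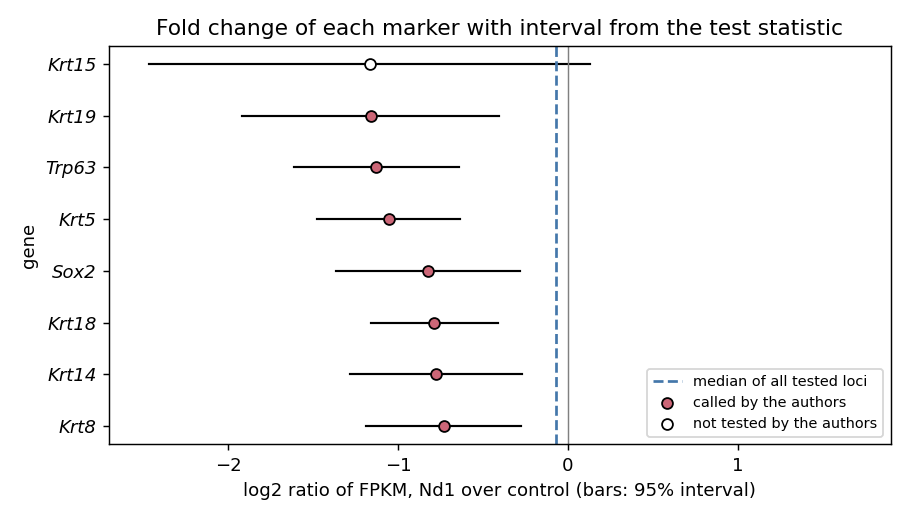
Log2 ratio of FPKM (Nd1 over control) of each marker, with the 95% interval derived from the authors' test statistic. The 7 filled points were called by the authors and their intervals lie below 0 and below the dashed median of all tested loci at -0.07, while the open point, Krt15, was not tested and its interval crosses 0.

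The basal keratin pair is a textbook target of Trp63, so the sequences before the starts of the keratins in the RefSeq promoter table (build GRCm38.p6) are shown. Krt8, Krt18, Krt19 and Sox2 fell as well as this pair, and a link of Trp63 to any of these falls was not tested. Of the 8 markers, 5 had an entry, namely Krt5, Krt14, Krt8, Krt18 and Sox2. The listed start of Krt14 lies 1518 bp inside the GENCODE gene, so its window was not read further. The listed start of Krt8 lies 140 bp inside and that of Sox2 410 bp outside the GENCODE gene, so the Sox2 window does not reach the start that GENCODE gives. The 250 bases before the start are printed 5′ to 3′ for Krt5 (chr15:101712906-101713155, minus strand) and for the neighbours Krt8 (chr15:102004343-102004592, minus strand) and Krt18 (chr15:102027966-102028215, plus strand). Capitals mark a p53 family half-site, the decamer that p53, p63 and p73 bind as a pair.
Krt5: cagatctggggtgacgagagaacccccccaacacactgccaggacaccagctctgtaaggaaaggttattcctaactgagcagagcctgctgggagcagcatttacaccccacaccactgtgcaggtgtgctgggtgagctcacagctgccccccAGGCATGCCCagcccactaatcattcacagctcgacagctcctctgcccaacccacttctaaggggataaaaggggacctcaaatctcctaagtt
Krt8: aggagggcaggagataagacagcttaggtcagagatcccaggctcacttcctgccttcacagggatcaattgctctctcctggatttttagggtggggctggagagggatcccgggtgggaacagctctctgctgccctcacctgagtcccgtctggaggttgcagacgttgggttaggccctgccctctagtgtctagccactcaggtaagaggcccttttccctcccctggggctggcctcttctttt
Krt18: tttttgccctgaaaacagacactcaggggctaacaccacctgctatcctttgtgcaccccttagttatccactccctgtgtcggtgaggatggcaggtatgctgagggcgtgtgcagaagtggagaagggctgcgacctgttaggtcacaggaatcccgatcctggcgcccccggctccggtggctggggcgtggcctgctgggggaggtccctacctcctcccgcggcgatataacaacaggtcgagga
The Krt5 window held 1 such half-site, 95 to 86 bases before the start, and the windows of Krt8, Krt18 and Sox2 held none. Of 27025 promoters of the same length, 1 per symbol and both strands searched, 7.18% held it. The Sox core ATTGTT, present in 9.65% of promoters, was in none of these windows. The GC box GGGCGG, present in 32.9%, occurred 2 times before Sox2 and in none of the other windows. A match is a run of letters and not a measured binding site.

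The keratin family as a whole did not fall evenly. Of 47 keratin symbols in the table, 17 were tested, of which 9 fell, 4 rose and 4 had no call by the authors' deposited table, and 19 were listed at 0 in both groups. The called shares, 52.9% lower and 23.5% higher, stand beside 19.2% and 15.1% of all tested loci. The median log2 ratio of the tested keratins above 0 was -0.75. Leaving the 6 markers out, 41 symbols remain, of which 12 were tested, 4 fell and 4 rose. The falls were those of Krt7 of glands and ducts (4.79 to 2.03 FPKM), Krt80 (3.51 to 1.09 FPKM), the basal and stress keratin Krt17 (2.30 to 1.10 FPKM) and Krt25 (0.613 to 0.257 FPKM). Krt10, the type I keratin of differentiating epidermis, rose from 3.34 to 5.62 FPKM with a log2 ratio of 0.75 (SE 0.25; q = 0.00834 in the authors' deposited table). Krt222 rose from 0.654 to 1.39 FPKM and Krt26 from 0.0773 to 0.510 FPKM, while Krt79 was listed at 0 in control and stood at 0.528 FPKM in Nd1. Krt72-ps, a pseudogene, did not pass at 1.53 and 1.21 FPKM. Krt25, Krt26 and Krt79 were below 1 FPKM in both groups and are named because they complete these counts. Keratin genes resemble each other, and how the authors' counting divided reads between paralogs is unknown.

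**Figure D3:**
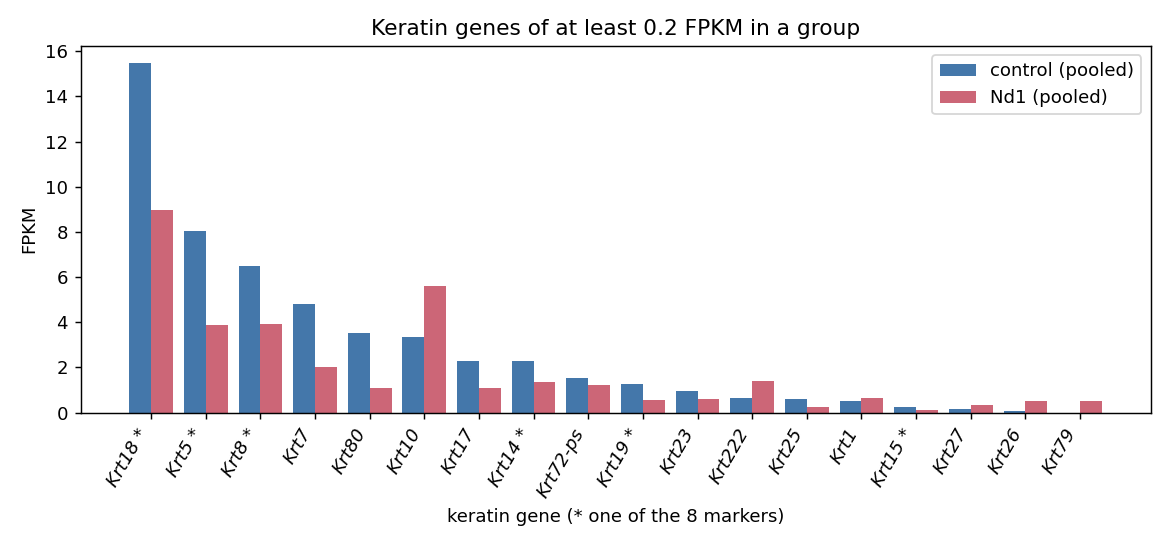
Pooled FPKM of the 18 keratin genes of at least 0.2 FPKM in a group, control and Nd1 side by side, ordered by control level, with the markers starred. Krt18, Krt5 and Krt8 are the 3 highest in control, and Krt10 is the tallest of those that rose.

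The relatives of both transcription factors went different ways. Of the p53 family, Trp63 fell while Trp53 itself rose from 4.05 to 5.11 FPKM (log2 ratio 0.33, SE 0.13; q = 0.0307 in the authors' deposited table). Trp73 rose from 0.227 to 0.532 FPKM and is named although below 1 FPKM, since the family has 3 genes. Of 19 Sox genes, 10 were tested, of which 3 fell, 1 rose and 6 did not pass, with a median log2 ratio of -0.17. Their called shares, 30% lower and 10% higher, stand beside 19.2% and 15.1% of all tested loci. Besides Sox2, the falls were those of Sox13 (6.25 to 4.11 FPKM) and Sox9, a factor of glands and ducts (0.899 to 0.350 FPKM). Sox11, a factor of immature neurons, rose from 1.95 to 7.12 FPKM, and Sox12 (16.1 and 18.4 FPKM) and Sox4 (2.70 and 3.65 FPKM) did not pass.

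Other genes of the basal layer and its anchoring to the basement membrane fell in 9 of 16 tested cases and rose in 1, with 6 not passing, in the authors' deposited table. Over all tested loci, 19.2% were called lower and 15.1% higher. The 9 falls include Dst (74.5 to 50.6 FPKM) and Bcl11b (19.0 to 14.4 FPKM), both far above Krt5 in level. Both are also made in neurons, so their falls cannot be assigned to basal cells. The median log2 ratio of this list was -0.48. Among the falls, the adhesion molecule Icam1 stood at 0.408 and 0.130 FPKM, the growth factor receptor Fgfr2 at 0.528 and 0.197 and the hemidesmosome collagen Col17a1 at 0.652 and 0.286 FPKM. The single rise was that of Lama3, a laminin alpha chain of the basement membrane, from 2.98 to 9.11 FPKM (log2 ratio 1.61, SE 0.09; q listed as 0 in the authors' deposited table). The most abundant genes of the list that did not pass were Jag2 (36.8 and 32.5 FPKM), Notch1 (4.84 and 6.41 FPKM) and Perp, a p63 target of cell junctions (3.77 and 3.59 FPKM). The basal genes thus included both falls of the size of Krt5 and genes without a call. Globose basal and cycling cell genes were spread around 0, with 2 falls, 1 rise and 9 not passing among 12 tested and a median of 0.11. Their called shares were 16.7% lower and 8.33% higher, and the former is near the share over all tested loci. The falls were those of the ribonucleotide reductase subunit Rrm2 (0.863 to 0.286 FPKM) and the receptor Kit (0.915 to 0.567 FPKM), and the rise was that of Sox11. The stem cell receptor Lgr5 was under 0.2 FPKM in both groups and was not tested.

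Genes listed as sustentacular, other than the markers, were lower in all 17 tested cases, beside 58.2% of tested loci above 0 in both groups. Of the 17, 7 fell and 10 had no call by the authors' deposited table, with a median log2 ratio of -0.62. The share of falls was 41.2%, beside 19.2% of all tested loci. The steepest falls of the list were those of Steap1 (1.46 to 0.582 FPKM), Hepacam2 (11.1 to 4.74 FPKM), the glutathione transferase Gstm1 (27.7 to 14.2 FPKM) and the receptor Notch2 (0.552 to 0.304 FPKM). Hepacam2 is not particular to sustentacular cells, so its fall cannot be assigned to them. The 3 most abundant genes without a call were the sulfotransferase Sult1d1 with a log2 ratio of -0.12 (SE 0.13) and the cytochromes Cyp2a5 with -0.14 (SE 0.15) and Cyp2g1 with -0.04 (SE 0.17). Cbr2, a carbonyl reductase more abundant than both cytochromes and named after its values were seen, fell from 50.2 to 32.2 FPKM with a log2 ratio of -0.64 (SE 0.16; q = 0.000345 in the authors' deposited table). The log2 ratios of the 17 genes ran from -1.33 to -0.04, a range wide enough to hold most falls. Those of Krt8, Krt18 and Sox2, from -0.82 to -0.73, lie between Gstm1 at -0.96 and Cbr2. Sult1d1, Cyp2a5 and Cyp2g1 lie nearer 0. No test of these differences was run.

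Genes of epithelial junctions and identity were called in both directions. Of 24 tested, 4 fell, 7 rose and 13 had no call by the authors' deposited table, with a median of 0.08. Over all tested loci the authors called 19.2% lower and 15.1% higher, and the share of falls in this list, 16.7%, is near the former. The share of rises was 29.2%, and no test against other genes was run. The epithelial transcription factor Elf3 fell from 1.85 to 0.800 FPKM, the splicing factor Esrp2 from 0.965 to 0.495, E-cadherin (Cdh1) from 3.97 to 2.26 and the tight junction scaffold Tjp1 from 21.2 to 16.4 FPKM. Tjp3, a relative of Tjp1, rose from 0.769 to 1.93 FPKM, the tricellular junction gene Marveld2 from 9.81 to 16.4 and the adhesion molecule Epcam from 77.5 to 112 FPKM. Spint2, a protease inhibitor, rose from 153 to 219 FPKM. The summed level of this list was 454 FPKM in control and 585 in Nd1, far above that of the 8 markers. A list of keratin partner and other cytoskeletal genes, the lamins Lmna and Lmnb1 and Vim among them, gave 1 fall and 2 rises among 10 tested (median -0.04). Those shares, 10% and 20%, stand beside the 19.2% and 15.1% of all tested loci. Dst, a linker of keratin to the hemidesmosome that is also made in neurons, fell from 74.5 to 50.6 FPKM. The cytolinker Ppl, which the junction list holds as well, rose from 15.9 to 23.5 FPKM, and Vim, the intermediate filament of mesenchymal and immature cells, rose from 4.05 to 14.9 FPKM.

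Markers of other cells in the tissue were read beside the 8 markers, since a sort can carry them. For comparison, 19.2% of all tested loci were called lower and 15.1% higher. Bowman gland and respiratory genes summed to 272 FPKM in control and 128 in Nd1, and 8 of 10 tested fell and 1 rose, with Scgb1a1 and Bpifb5 listed at 0 in both groups. Microvillar cell and ionocyte genes summed to 71.0 and 39.9 FPKM, and 6 of 8 tested fell and 1 rose. Olfactory ensheathing glia genes summed to 13.1 and 16.8 FPKM, with none of 6 tested called lower and 1, the myelin gene Mbp, called higher. The glial factor Sox10, which defines those cells, stood at 0.370 and 0.168 FPKM and did not pass. Gland and microvillar genes therefore moved with the 8 markers, and their part in the result was not tested.

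The neurons' own genes also fell. Of 14 tested genes of mature olfactory sensory neurons 11 fell and 3 did not pass, with a median log2 ratio of -0.78 beside the -0.82 of the 7 tested markers. The share of falls was 78.6%, beside 19.2% of all tested loci. Omp, the gene that carries the reporter, went from 4087 to 605 FPKM. Both Nd1 libraries carry the tTA insertion at this gene as well, while control replicate 1 does not. A change of Omp and this difference in alleles cannot be told apart. The summed level of the 8 markers was 0.948% of that of Omp in control and 3.53% in Nd1, a share that moves with both. After Omp, the steepest falls were those of Stoml3 (3425 to 1254 FPKM), S100a5 (3542 to 1461 FPKM) and Pde1c (243 to 118 FPKM). The 3 that did not pass were Rtp1 (566 and 473 FPKM), Rtp2 (386 and 333 FPKM) and Slc17a6, the vesicular glutamate transporter of these neurons (134 and 130 FPKM). As a share of all FPKM in the table, the 8 markers made up 0.00989% in control and 0.00597% in Nd1.

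**Figure D4:**
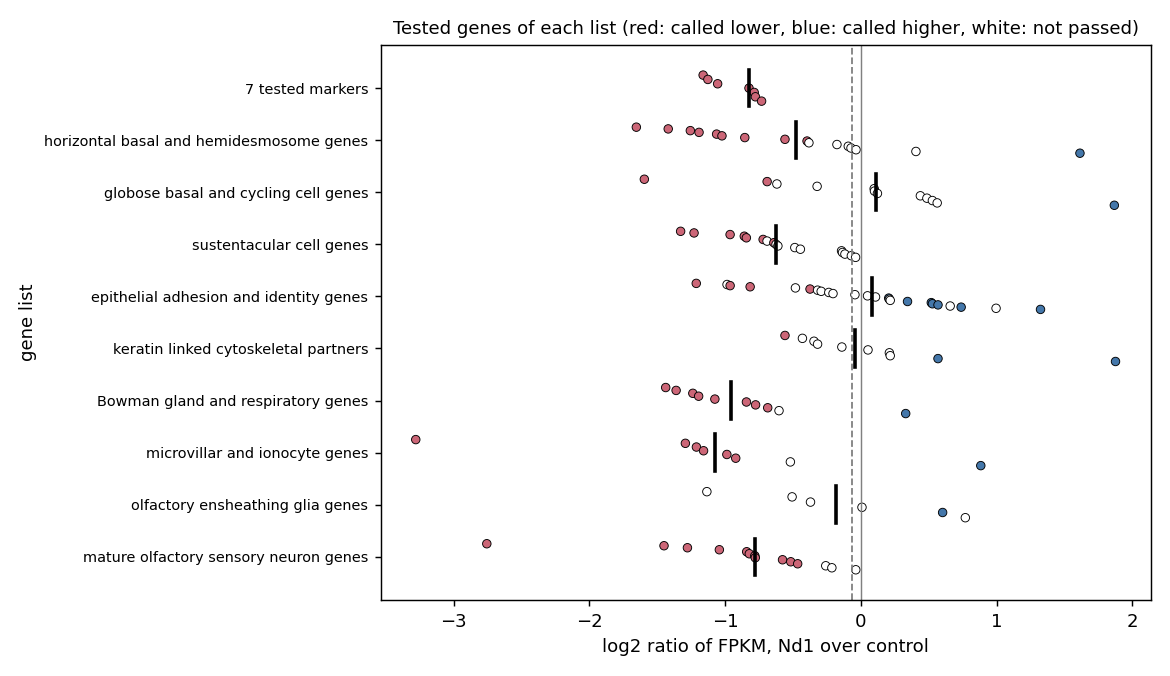
Log2 ratio of FPKM (Nd1 over control) of each tested gene above 0 in both groups, by gene list, with the list median as a black bar and the median of all tested loci as a dashed line. The 7 tested markers cluster between -1.16 and -0.73, whereas the junction and globose basal lists spread on both sides of 0.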

How the data were processed

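RNA of sorted mature olfactory sensory neurons was sequenced from 2 control and 2 Nd1 libraries (Illumina TruSeq), per the labels' protocols. Bowtie, Cuffdiff 1.3.0 and the build mm9 are listed in the submitters' processing notes. Which annotation and filters were applied is not stated in those sources. A single FPKM value per group was deposited by the authors for each locus, pooled over both libraries, together with a log2 fold change, a test statistic (a score), a p-value and a q-value, per the file headers. Columns of values per library used here number 0, so no test was run, no depth is known and no interval from counts was made. Of 28168 loci, 14841 were tested by the authors, 12711 were not tested and 616 failed. Calls are the authors' at q under 0.05, and their q equals a Benjamini-Hochberg adjustment over tested loci.

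The log2 ratio was taken from the FPKM values with no pseudocount. The p-value equals the two-sided normal tail of the test statistic within 1% in 100.0% of 13429 tested loci, and the SE is the size of the log2 ratio divided by the size of that statistic, whose sign is opposite to that of the ratio, on the reading that the statistic is the log ratio over its error. The adjustment was tested on simulated data. The SE was also computed there, but from a statistic built as the ratio over its error, so its recovery was fixed in advance. That reading of the authors' statistic was therefore not tested. Coordinates are mm9 as listed, with 1 added to each start. Where a symbol had several loci, the locus of highest mean FPKM stood for it. The members and the gene lists were chosen with earlier results of these data known. Named were all 8 markers, in each list up to 4 called genes by size of change and up to 3 without a call by level, and family members of at least 1 FPKM. Symbols of the lists without a row of their own (among them Lamb3, Krt6a, Ugt2a1, Ugt2a2, Muc2, Plec, Obp2a and Foxj1) were not analysed here, and a few genes that the naming rule takes are not reported here. Python 3.11.15, pandas 2.3.3, scipy 1.17.1 and matplotlib 3.10.9 were used.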

Additional observations from a re-analysis of the deposited data

How the results depend on the processing

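All 8 markers stayed lower in Nd1 under each of the 5 other scales and pseudocounts tried. The median log2 ratio of the 7 tested markers lay between -0.61 (pseudocount of 1 FPKM) and -0.79 (pseudocount of 0.1 FPKM), with -0.73 after quantile normalization and -0.72 with equal totals outside the odorant receptors, which shifts every locus by 0.10. With a pseudocount of 1 FPKM, Krt14 moved to -0.49, Krt15 to -0.18, Krt19 to -0.53 and Trp63 to -0.63, as a pseudocount shrinks low genes. Quantile normalization put Krt14 at -0.50 and Trp63 at -0.81. Leaving out each marker in turn moved the summed ratio between 0.53 and 0.57.

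Of the 7 called markers 5 had a q under 0.01 and all 7 passed when adjusted over loci of at least 0.5 FPKM, but only 3 (Krt5, Krt19 and Trp63) fell by at least 2-fold. For the lists, only counts that changed by over 1.5 times are given here. Smaller changes are left out, such as horizontal basal falls from 9 to 6 with the 2-fold minimum. With that 2-fold minimum the counts of falls became 2 for sustentacular, 1 for globose basal, 1 for junction, 0 for keratin partner, 5 for gland, 4 for mature neuron and 1 for Sox genes. The counts of rises became 1 for junction, 1 for keratin partner, 0 for gland, 0 for microvillar, 0 for ensheathing and 1 for p53 family genes. At q under 0.01 they were 1 globose basal fall, 0 gland rises, 1 Sox fall and 1 p53 family rise. Adjusted over loci of at least 0.5 FPKM, 2 keratin rises and 1 p53 family rise were left, since that test holds fewer loci. Taking the longest locus of a symbol moved no count of a list by over 1.5 times. No paired analysis was possible because the table holds 1 pooled value per group, and for the same reason no replicate could be left out.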

Other observations

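Microvillar cells and ionocytes are sparse non-neuronal cells of the epithelium, and 6 of their 8 tested genes fell while 1 rose in the Nd1 pool. Of all tested loci, 19.2% were called lower and 15.1% higher. Ascl3, a factor of microvillar cells, fell from 42.8 to 18.5 FPKM, the ionocyte factor Foxi1 from 13.4 to 7.09 and the chloride channel Cftr from 5.59 to 2.28 FPKM, in the authors' deposited table. Il25, a cytokine of chemosensory cells, fell from 0.811 to 0.0836 FPKM and Alox5, a leukotriene enzyme, fell as well (log2 ratio -1.16, SE 0.44), as did Avil, an actin-binding gene, from 0.787 to 0.397 FPKM. Pou2f3, the factor that specifies chemosensory microvillar cells, rose from 5.64 to 10.4 FPKM (log2 ratio 0.88, SE 0.20; q = 5.63e-05). The channel Trpm5 of the same cells did not pass at 1.18 and 0.826 FPKM.

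Among gland and respiratory genes, Bpifa1 fell from 184 to 68.1 FPKM, Sox9 from 0.899 to 0.350, Krt7 from 4.79 to 2.03 and Reg3g from 16.3 to 7.14 FPKM. Sec14l3 was the single rise, from 19.1 to 24.0 FPKM (q = 0.0400 in the authors' deposited table).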
